A study of Mus musculus with 6 samples.

Results

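The mouse Zfp genes are a large class of genes named for zinc fingers, most of which code for proteins that bind DNA through rows of C2H2 fingers. They were taken here by symbol, as genes whose only annotated symbol is Zfp followed by a digit, and each gene stands for the probe set with its highest 6-array mean. A gene was kept when that mean lay above a background level of 4.60 on the log2 scale, the 95th percentile of the means of 71 receptor genes of the olfactory and vomeronasal families, which had a median of 2.70. Of 336 Zfp genes on the array, 280 (83.3%) were kept, out of 18193 genes measured. These genes were chosen by their measured mean, which takes both groups together, so a gene could be kept through either group alone. Of the 280 genes, 242 had both group means above the level, 29 only the mean of CCK-EGFP cells and 9 only the mean of non-EGFP cells.

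The arrays are Affymetrix mouse arrays of intestinal cells from adult Swiss Webster mice that all carried the CCK-EGFP transgene, in which enhanced green fluorescent protein (EGFP) marks cells that make the hormone cholecystokinin. There were 3 samples of EGFP-positive cells, called CCK-EGFP cells, and 3 samples of sorted cells without fluorescence from such mice, called non-EGFP cells. Cells were freed with enzymes and sorted by fluorescence, and picogram amounts of RNA were amplified before labelling. The labels do not say if a group's samples are of different mice, and the spread behind each p-value may therefore be technical. EGFP marks the sorted cells through the transgene alone, and the non-EGFP cells are a mixture of every other cell type that passed the sort.

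Many Zfp proteins carry a KRAB domain beside their fingers. KRAB recruits TRIM28 (KAP1), which brings histone methyltransferase, heterochromatin proteins and deacetylases to the bound DNA and silences it, and many of these proteins act on transposable elements. Other Zfp proteins bind GC-rich promoters, belong to chromatin complexes or bind RNA. Zfp36, Zfp36l1 and Zfp36l2 fit the symbol rule, but their fingers are of the CCCH kind and bind RNA. The symbol rule also took in 3 genes that the RefSeq table does not list as protein-coding, Zfp783, Zfp85os and Zfp862-ps. Whether each of the other proteins holds C2H2 fingers was not analysed here.

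The sort was checked first. All 12 measured enteroendocrine markers were higher in CCK-EGFP cells, and their mean log2 level was 12.11 to 12.46 on CCK-EGFP arrays and 7.33 to 7.53 on non-EGFP arrays. Of 12 enterocyte markers 4 were lower and 0 higher, with mean levels of 12.37 to 13.16 on CCK-EGFP arrays and 13.51 to 13.57 on non-EGFP arrays. The labels describe both groups as enteroendocrine, while these markers set the groups apart. Among 6 tuft cell markers 4 were higher, among 7 goblet cell markers 1 was higher and 2 were lower, and among 7 myeloid markers 1 was lower. Of 5 markers of enteric neurons and glia 2 were higher and of 5 stem and crypt-base markers 1, while 0 of 4 Paneth cell and 0 of 2 erythroid markers passed. Over all genes above the level 18.7% were higher and 12.3% lower. These shares are the background for the marker counts, and in lists this short a single call is near them. With the replicate block 1 enterocyte marker was lower in place of 4, 3 Paneth cell markers in place of 0 and 2 myeloid markers in place of 1. In the same fit 2 stem and crypt-base markers were higher in place of 1, and 3 tuft cell markers in place of 4. The defining markers Lgr5, Pou2f3, Adgre1, Itgam, Elavl4, S100b, Gfap and Hba-a1 had 6-array means below the level, Gfap being among the higher genes. The 8 T and NK cell markers had mean levels of 9.92, 10.82 and 11.91 on CCK-EGFP arrays 1, 2 and 3 and of 10.49, 11.05 and 11.77 on the non-EGFP arrays, with 0 past the test, so RNA of lymphocytes was measured in both groups. For 4 B and plasma cell markers the means were 5.91, 6.80 and 9.34 against 7.93, 7.15 and 8.27. Of 7 stromal markers, 5 lay below the level, Col1a1, Col3a1, Dcn, Cdh5 and Kdr. The part of these other cell types in the results that follow was not tested. In bulk samples such as these, fewer cells of a type and less RNA per cell cannot be told apart.

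More Zfp genes were higher in CCK-EGFP cells than were lower. By limma's test over all 18193 genes, with an adjusted p under 0.05, 69 of the 280 genes (24.6%) were higher and 8 (2.86%) were lower, while 203 did not pass. Over all genes tested 14% were higher and 10.2% lower, and over the 12975 genes above the level the shares were 18.7% and 12.3%. Of the 69 higher genes 18 were kept through the CCK-EGFP mean alone, where a difference was part of how they were kept. Among the 242 Zfp genes with both group means above the level, a comparison added after the values were seen, 51 (21.1%) were higher and 8 (3.31%) lower, against 16.0% and 12.6% of the 11885 such genes. The median log2 difference, CCK-EGFP minus non-EGFP, was 0.461 for the Zfp genes, -0.17 for all genes and 0.0495 for genes above the level. A positive difference was found for 193 Zfp genes (68.9%), against 52.1% of the genes above the level. Groups did not overlap, with CCK-EGFP higher, for 105 Zfp genes, where the share was 21.8% of all genes tested and 29.0% of those above the level. They did not overlap, with CCK-EGFP lower, for 24, where the shares were 28.1% and 24.6%.

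These counts rest on single arrays. Without CCK-EGFP replicate 1, 25 Zfp genes (8.93%) were higher, against 10.7% of the genes above the level, and without CCK-EGFP replicate 2, 29 were higher (10.4%, against 10%). In those fits the share of higher Zfp genes was at the background. The median difference stayed at 0.459 and 0.408, and it lay between 0.408 and 0.497 in the 6 fits that each leave out 1 array. With the replicate number as a block, 60 Zfp genes were higher and 9 lower, and 53 and 6 of these were the same genes. These were 21.4% and 3.21% of the Zfp genes, against 17.1% and 10.9% of the genes above the level.

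The array scaling also bears on the direction. After each array was centred on its median, 52 Zfp genes were higher and 18 lower, and the median difference was 0.208. That centring lowered the median of all genes from -0.17 to -0.4227. Higher genes made up 89.6% of the Zfp genes past the test in the deposited scaling and 74.3% after centring. Of all genes above the level 15.5% were higher and 20.1% lower after centring, against 18.6% and 6.43% of the Zfp genes, so the higher share lay close to that of the other genes. The Zfp median lay 0.411 above the median of all genes above the level in the deposited scaling and 0.319 above it after a second quantile normalization. Among the genes named below, centring ended the calls of Zfp281, Zfp326, Zfp790, Tasor and Egr1 (limma adjusted p = 0.09746, 0.1604, 0.06886, 0.05379 and 0.1389), and Zfp36l1, Zfp598 and Zfp708 passed as lower (limma adjusted p = 0.03916, 0.02148 and 0.03848). A first centring, on the median of probe sets with 1 symbol, was replaced by this one after results were seen. It gave 51 higher and 30 lower Zfp genes (18.2% and 10.7%) and a median difference of 0.0905. Of genes above the level 14.9% were then higher and 25.7% lower.

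The level of a gene mattered for how its count reads. Of the 140 Zfp genes with the lower means, up to 7.44, 36 (25.7%) were higher in CCK-EGFP cells, close to the 24.8% of all genes in that range, and 1 (0.714%) was lower, against 7.75%. Of the 140 with the higher means, 33 (23.6%) were higher, against 15.4%, and 7 (5.0%) were lower, against 14.7%. The median differences were 0.614 and 0.368, against 0.21 and 0.0025 for all genes in the same ranges. The plot of level against difference shows the 280 genes among all genes above the level.

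**Figure D1:**
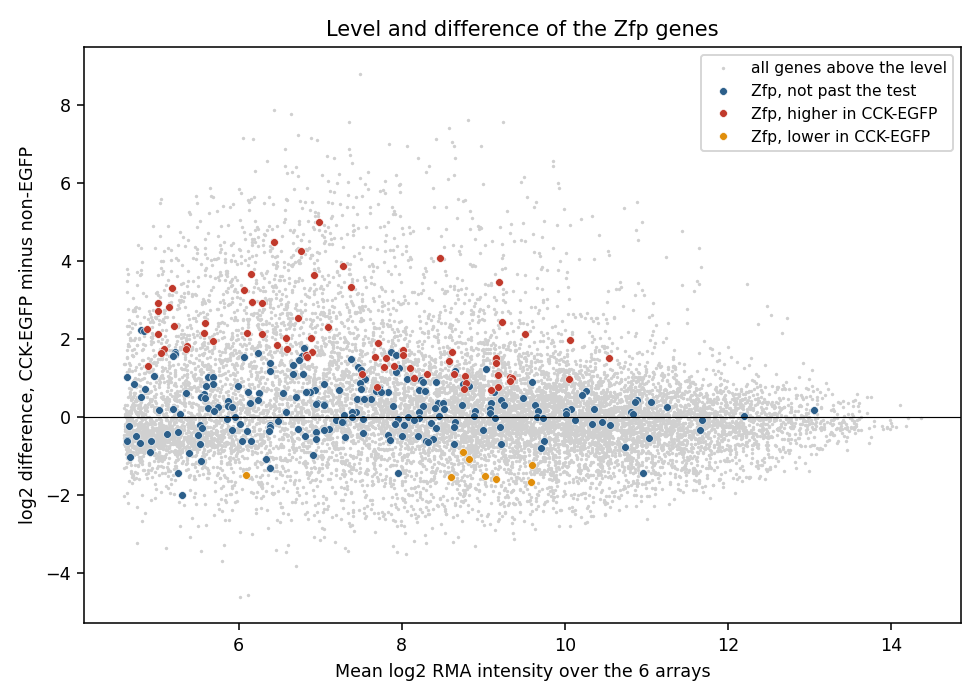
Each point is 1 gene above the background level, with its mean log2 RMA intensity over the 6 arrays on the horizontal axis and its log2 difference, CCK-EGFP minus non-EGFP, on the vertical axis. Grey points are all 12975 genes above the level; coloured points are the 280 Zfp genes, 69 higher in CCK-EGFP cells, 8 lower and 203 not past the test.

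Array by array, the median level of the 280 genes was 7.92, 8.02 and 7.70 on CCK-EGFP arrays, against 7.06, 7.33 and 7.23 on non-EGFP arrays. The 3 CCK-EGFP medians were all above the 3 non-EGFP medians. The same held for genes above the level, with medians of 8.81, 8.90 and 8.82 against 8.45, 8.66 and 8.61. It also held for all genes measured, with 7.39, 7.54 and 7.47 against 6.58, 6.84 and 6.92, so this order is not particular to Zfp genes. Replicates of the non-EGFP group also lay further apart. The median within-group SD of the Zfp genes was 0.264 in CCK-EGFP cells, against 0.524 in non-EGFP cells; for all genes above the level the SDs were 0.27 and 0.364.

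**Figure D2:**
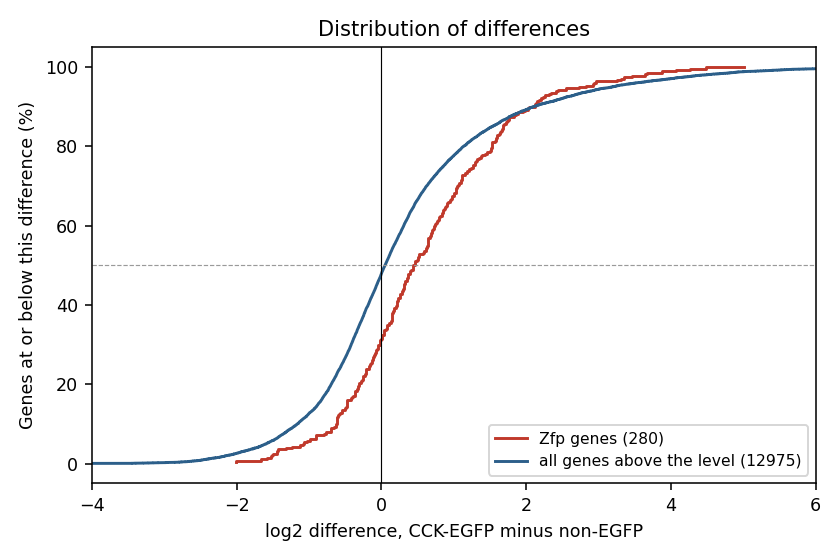
Cumulative share of genes (vertical axis, percent) at or below each log2 difference, CCK-EGFP minus non-EGFP (horizontal axis), for the 280 Zfp genes and for the 12975 genes above the level. The Zfp curve lies to the right of the other at the 25th percentiles (-0.135 and -0.548), the medians (0.461 and 0.0495) and the 75th percentiles (1.28 and 0.855). This order does not extend to the largest positive differences.

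Among the Zfp genes that passed, 61 were higher by at least 1 on the log2 scale, 29 by at least 2 and 11 by at least 3. Of the lower genes 7 fell by at least 1 and 0 by at least 2. Of the 12975 genes above the level, 2172, 1281 and 718 were higher by at least 1, 2 and 3. Lower by at least 1 and 2 were 1151 and 294 of them. As shares of the 280 Zfp genes, the higher counts lay above this background at 1, close to it at 2 and below it at 3. The excess of higher Zfp genes thus did not extend to the largest differences. The shares of lower Zfp genes were below the background at both 1 and 2. The median difference of the higher genes was 1.76 for Zfp genes and 2.10 for genes above the level. The starts of 7 of the leading genes are shown first, because they let the higher and lower genes be set side by side. They are the 5 highest and 2 lowest differences among called genes with exactly 1 start in the promoter table, a choice made after values were seen. Each is the stretch of 250 bases before the gene's start, from RefSeq on build GRCm38.p6, written 5′ to 3′ on the gene's strand. Capitals mark the GC box GGGCGG or its reverse complement CCGCCC, the letters bound by Sp1-type factors. The first 5 genes were higher in CCK-EGFP cells and the last 2 lower.
Zfp667, chr7:6286330-6286579, plus strand: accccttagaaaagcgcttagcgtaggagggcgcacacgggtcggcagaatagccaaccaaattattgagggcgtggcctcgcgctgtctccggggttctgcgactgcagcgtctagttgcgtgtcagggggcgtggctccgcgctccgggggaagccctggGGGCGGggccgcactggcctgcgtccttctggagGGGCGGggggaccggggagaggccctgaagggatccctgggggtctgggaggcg
Zfp275, chrX:73342370-73342619, plus strand: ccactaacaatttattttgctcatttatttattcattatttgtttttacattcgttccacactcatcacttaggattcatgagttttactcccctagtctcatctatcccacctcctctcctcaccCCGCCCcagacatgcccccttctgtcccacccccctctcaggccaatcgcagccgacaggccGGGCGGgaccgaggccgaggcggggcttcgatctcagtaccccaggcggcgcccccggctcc
Zfp763, chr17:33033382-33033631, minus strand: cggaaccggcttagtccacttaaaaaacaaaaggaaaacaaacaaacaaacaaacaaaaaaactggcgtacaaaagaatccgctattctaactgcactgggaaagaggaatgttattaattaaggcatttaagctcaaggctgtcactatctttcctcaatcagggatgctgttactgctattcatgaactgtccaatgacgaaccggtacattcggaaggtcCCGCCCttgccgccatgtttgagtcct
Zfp618, chr4:62965317-62965566, plus strand: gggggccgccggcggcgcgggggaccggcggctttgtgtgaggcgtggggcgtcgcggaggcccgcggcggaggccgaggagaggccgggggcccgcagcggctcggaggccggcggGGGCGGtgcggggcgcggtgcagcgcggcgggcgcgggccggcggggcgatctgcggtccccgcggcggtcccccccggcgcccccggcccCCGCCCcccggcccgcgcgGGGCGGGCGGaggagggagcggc
Zfp82, chr7:30072824-30073073, minus strand: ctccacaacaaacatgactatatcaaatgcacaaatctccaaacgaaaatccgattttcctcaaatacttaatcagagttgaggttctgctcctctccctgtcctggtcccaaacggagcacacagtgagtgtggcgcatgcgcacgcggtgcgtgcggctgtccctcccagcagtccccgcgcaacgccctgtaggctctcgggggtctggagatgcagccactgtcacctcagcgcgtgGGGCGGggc
Zfp592, chr7:80993434-80993683, plus strand: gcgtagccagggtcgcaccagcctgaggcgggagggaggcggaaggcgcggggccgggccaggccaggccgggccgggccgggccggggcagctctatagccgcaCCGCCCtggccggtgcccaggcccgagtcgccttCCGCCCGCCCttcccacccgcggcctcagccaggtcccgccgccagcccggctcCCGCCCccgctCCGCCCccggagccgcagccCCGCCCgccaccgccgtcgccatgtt
Zfp768, chr7:127345315-127345564, minus strand: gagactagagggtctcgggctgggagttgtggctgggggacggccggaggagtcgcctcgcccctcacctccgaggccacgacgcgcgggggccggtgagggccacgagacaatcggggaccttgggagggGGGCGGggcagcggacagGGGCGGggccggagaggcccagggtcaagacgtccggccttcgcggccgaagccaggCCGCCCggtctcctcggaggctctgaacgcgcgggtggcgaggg

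The number of GC boxes in the 7 ran from 1, in Zfp763 and Zfp82, to 6 in Zfp592, and it says nothing of the other Zfp genes. Zfp763 had 42.4% G and C and 9 CpG pairs in its 250 bases, Zfp618 88.8% and 48, and Zfp592 81.6% and 33. A promoter was found by gene ID for 233 of the 280 genes, and 287 promoters of these were scanned on both strands beside all 32851 in the table. GGGCGG was in 41.1% of the Zfp promoters, in 41.3% of the 63 promoters of higher genes and in 32.7% of all. The ETS-type letters CCGGAA were in 30.7%, 23.8% and 12.0% of the same 3 sets, CCAAT in 43.6%, 38.1% and 33.8%, and the TATA-box letters TATAAA in 6.62%, 6.35% and 12.4%. The cAMP response letters TGACGTCA were in 2.79%, 3.17% and 1.55%, and the YY1-type letters AAGATGG in 3.48%, 6.35% and 4.49%. The E-box letters CAGATG, 1 form of the site of NeuroD-type factors, were in 12.5%, 20.6% and 14.4%. No test was run on these shares. The median promoter held 12 CpG pairs against 6 in all promoters. A match describes the letters only, and neighbouring Zfp genes may share them by descent.

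Zfp667 had the largest difference. Its levels were 9.78, 9.96 and 8.74 in CCK-EGFP cells, against 3.68, 3.21 and 6.55 in non-EGFP cells. The groups did not overlap, but the third non-EGFP array was far above the other 2. As the non-EGFP mean of 4.48 lay below the level, Zfp667 was at least 29.8-fold higher in CCK-EGFP cells (limma adjusted p = 0.01075). Its rat counterpart is known as Mipu1, a KRAB repressor induced in ischaemic heart.

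Zfp275, an X-linked gene, had levels of 8.61, 8.66 and 8.75 in CCK-EGFP cells, against 2.86, 3.73 and 5.97 in non-EGFP cells, at least 16.8-fold higher (limma adjusted p = 0.008886). Zfp90, a KRAB gene linked to fat mass in transgenic mice, had 9.05, 8.90 and 8.73 against 6.06, 3.61 and 4.21, a log2 difference of 4.27 with an SE of 0.602 (limma adjusted p = 0.005202). In both genes the CCK-EGFP arrays lay within a narrow range and the non-EGFP arrays were spread over more than 2 log2 units.

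Zfp763 showed the same in the extreme, with 10.56, 10.46 and 10.50 in CCK-EGFP cells, against 3.88, 6.94 and 8.46 in non-EGFP cells. Its difference of 4.08 had an SE of 1.07 (limma adjusted p = 0.0374), and it lost the call without any 1 of the 3 CCK-EGFP arrays or without non-EGFP replicate 2. Another probe set of Zfp763, at a mean level of 5.20, differed by -0.27 and was not past the test. Zfp799 had 9.14, 8.69 and 8.42 against 3.13, 5.60 and 6.58, a difference of 3.65 with an SE of 0.835 (limma adjusted p = 0.02486). It lost the call without the same 4 arrays.

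Zfp618 codes for a protein that binds 5-hydroxymethylcytosine with UHRF2. Its levels were 9.45, 9.23 and 8.98 in CCK-EGFP cells, against 4.44, 4.67 and 6.92 in non-EGFP cells, a difference of 3.87 with an SE of 0.647 (limma adjusted p = 0.009113). The groups stood more than 2 log2 units apart. Of its 4 probe sets 3 were higher when tested alone, by 3.87, 3.42 and 3.13, and the remaining one differed by -0.49.

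Zfp462, which keeps enhancers of other lineages silent in mouse embryonic stem cells, measured 11.07, 10.87 and 10.81 in CCK-EGFP cells, against 6.12, 8.02 and 8.24 in non-EGFP cells, a difference of 3.46 with an SE of 0.556 (limma adjusted p = 0.007992). All 3 of its probe sets were higher when tested alone, by 3.46, 3.40 and 1.27.

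Zfp82 had 7.99, 8.33 and 7.62 in CCK-EGFP cells, against 3.49, 5.15 and 4.30 in non-EGFP cells, at least 10.4-fold higher (limma adjusted p = 0.00282). Zfp12 had 9.23, 9.18 and 8.74 against 4.89, 6.41 and 5.81, a difference of 3.35 with an SE of 0.402 (limma adjusted p = 0.002868). Zfp14 had 8.47, 7.25 and 7.37 against 4.91, 4.35 and 4.05, at least 8.55-fold higher (limma adjusted p = 0.00298). For these 3 genes the lowest CCK-EGFP array lay more than 2 log2 units above the highest non-EGFP array. Both probe sets of Zfp14 were higher when tested alone, whereas the other probe set of Zfp82, below the level with a mean of 3.80, differed by -0.46.

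Zfp287, a gene with SCAN and KRAB domains, had 7.65, 8.10 and 7.22 in CCK-EGFP cells, against 4.55, 4.29 and 5.23 in non-EGFP cells, a difference of 2.97 with an SE of 0.337 (limma adjusted p = 0.002333). Zfp2 had 8.13, 7.74 and 7.40 against 5.44, 5.13 and 3.90, a difference of 2.93 with an SE of 0.434 (limma adjusted p = 0.006101). Both held in every fit that left out 1 array. Zfp40 and Zfp711 were less certain. Zfp40 had 7.72, 6.68 and 6.15 against 4.90, 2.71 and 2.99, at least 4.76-fold higher (limma adjusted p = 0.01659), and lost the call without CCK-EGFP replicate 1, without CCK-EGFP replicate 2 or without non-EGFP replicate 2. Zfp711, an X-linked relative of Zfx, had 7.43, 6.65 and 5.34 against 2.76, 3.30 and 4.56, at least 3.67-fold higher (limma adjusted p = 0.02287), and its adjusted p was 0.06101 with the replicate number as a block. It also lost the call without replicate 1 or 2 of either group.

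**Figure D3:**
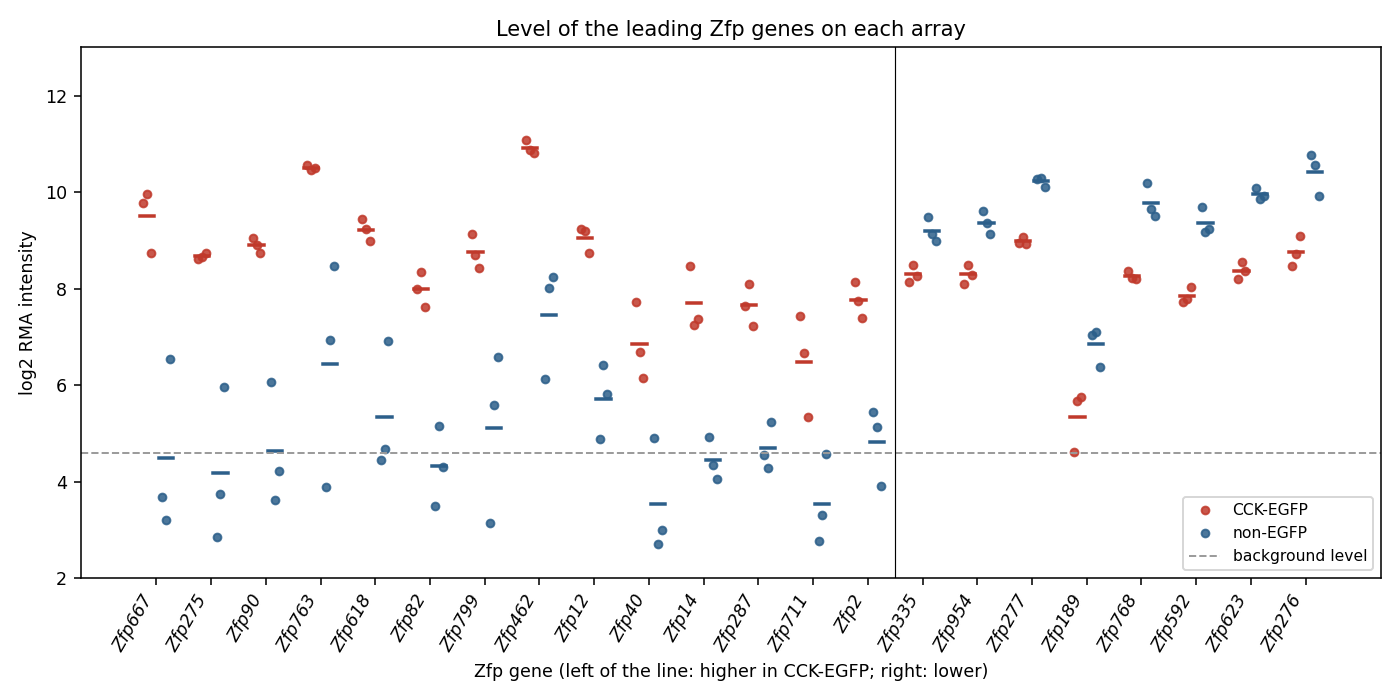
Log2 RMA intensity (vertical axis) of 14 Zfp genes with the largest positive difference and of the 8 lower Zfp genes on each array, with CCK-EGFP arrays in red left of non-EGFP arrays in blue; bars are group means and the dashed line is the background level of 4.60. The 22 genes were taken from those whose groups do not overlap, and the non-EGFP arrays of Zfp667, Zfp275, Zfp763 and Zfp799 are widely spread.

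The 8 lower genes were expressed well above the level in both groups, Zfp189 excepted. Zfp276, which overlaps the end of the Fanconi anaemia gene FANCA in human, had the largest decrease. Its levels were 8.48, 8.71 and 9.08 in CCK-EGFP cells, against 10.77, 10.57 and 9.93 in non-EGFP cells, a difference of -1.67 with an SE of 0.291 (limma adjusted p = 0.01052). All 4 of its probe sets had negative differences and 3 passed when tested alone. Zfp623 had 8.20, 8.54 and 8.36 against 10.08, 9.86 and 9.92, a difference of -1.58 with an SE of 0.186 (limma adjusted p = 0.002681). Here the groups were each within 0.4 log2 units.

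Zfp592 had 7.72, 7.78 and 8.03 in CCK-EGFP cells, against 9.70, 9.17 and 9.24 in non-EGFP cells, a difference of -1.53 (limma adjusted p = 0.005597). Of its 3 probe sets 2 were lower when tested alone and the other differed by -0.02. Zfp768 had 8.36, 8.23 and 8.21 against 10.18, 9.66 and 9.49, a difference of -1.51 (limma adjusted p = 0.006851). Zfp277, which takes part in silencing of the Ink4a/Arf locus in mouse fibroblasts, had 8.95, 9.07 and 8.93 against 10.28, 10.29 and 10.10, a difference of -1.24 (limma adjusted p = 0.004865). These 5 genes kept the call in each of the 6 fits that leave out 1 array.

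The other 3 did not. Zfp954 had 8.09, 8.50 and 8.29 in CCK-EGFP cells, against 9.60, 9.37 and 9.13 in non-EGFP cells, a difference of -1.07 (limma adjusted p = 0.01596), and lost the call without CCK-EGFP replicate 1. Zfp189, a KRAB gene studied for stress resilience in mouse prefrontal cortex, had 4.61, 5.67 and 5.76 against 7.04, 7.11 and 6.37, a difference of -1.49 (limma adjusted p = 0.03411, and 0.05984 with the replicate block). Zfp335, a subunit of a histone H3K4 methyltransferase complex needed in neural progenitors, had 8.14, 8.50 and 8.27 against 9.47, 9.13 and 8.996, a difference of -0.90 (limma adjusted p = 0.02731, and 0.05704 with the replicate block). Zfp189 and Zfp335 each lost the call without replicate 1 or 2 of either group, and Zfp335 also without CCK-EGFP replicate 3.

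The 6 Zfp genes with the highest mean intensities did not pass the test, though probe sets differ in affinity and their intensities do not rank transcripts. Zfp622, a factor of large ribosomal subunit maturation, had 13.28, 13.15 and 12.98 in CCK-EGFP cells, against 13.05, 13.01 and 12.82 in non-EGFP cells. Zfp703, a NET family repressor, had 11.79, 11.63 and 11.54 against 11.81, 11.71 and 11.64. For both the difference was within the range of the replicates, at 0.18 and -0.07. Zfp384 differed by -0.32, Zfp106 by 0.26 and Zfp263 by 0.40, and their limma adjusted p-values were 0.2085, 0.5911 and 0.3028. The probe sets of Zfp106 disagreed, since 1 of its 5 was lower when tested alone, by -1.07.

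The 3 CCCH proteins destabilise messenger RNAs with AU-rich elements, and 0 of them passed. Zfp36 (tristetraprolin) had 12.28, 12.42 and 11.92 in CCK-EGFP cells, against 12.43, 12.15 and 11.93 in non-EGFP cells. Zfp36l2 differed by 0.43 (limma adjusted p = 0.2152). Zfp36l1 had 9.29, 10.09 and 11.36 against 11.67, 11.59 and 11.78, a difference of -1.43 with a limma adjusted p of 0.08256. Without CCK-EGFP replicate 3 it passed, at -1.99 (limma adjusted p = 0.0101). Its other probe set, at a mean level of 5.81, differed by -1.81 and passed when tested alone. The level on CCK-EGFP array 3 was close to the non-EGFP arrays, and the mean of the enterocyte markers was 12.37, 12.48 and 13.16 on CCK-EGFP arrays 1, 2 and 3. Other marker means were also highest on array 3. They were 9.92, 10.82 and 11.91 for T and NK cells, 5.91, 6.80 and 9.34 for B and plasma cells and 8.19, 7.76 and 10.17 for Paneth cells. Tuft cell means fell, from 8.90 on array 1 to 7.75 on array 3. The part of any of these cell types in the level of Zfp36l1 was not tested.

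Of 11 RNA-binding and ribosome-linked Zfp genes 2 were higher and 0 lower, with a median difference of 0.26. Of all genes above the level 18.7% were higher and 12.3% lower, and of all 280 Zfp genes 24.6% and 2.86%. These shares are the background for this list and for the lineage, GC-box and retroelement lists below. No list was tested as a set. Zfp697, a regulator of muscle regeneration in mice, had 6.65, 5.72 and 5.83 in CCK-EGFP cells, against 4.13, 3.29 and 4.42 in non-EGFP cells, at least 2.77-fold higher (limma adjusted p = 0.01214). Zfp326, a subunit of the DBIRD complex that links elongation with splicing, differed by 0.68 (limma adjusted p = 0.04137, and 0.06132 with the replicate block), and lost the call without any 1 of the 6 arrays. Zfp598, the ubiquitin ligase of collided ribosomes, had 9.47, 9.48 and 9.34 against 10.13, 9.86 and 10.16 and did not pass (limma adjusted p = 0.05161).

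Of 7 lineage factors above the level 2 were higher and 0 lower, and the median difference was 1.27. Beside Zfp462 this was Zfp516, an activator of brown fat genes, with 10.20, 9.59 and 9.74 in CCK-EGFP cells, against 8.05, 8.78 and 8.55 in non-EGFP cells (difference 1.38, limma adjusted p = 0.01572). Zfp516 lost the call without CCK-EGFP replicate 1. With the replicate block 3 of the 7 were higher. The added gene was Zfp467, with a difference of 1.27 (limma adjusted p = 0.1429, and 0.03221 with the replicate block). Zfp608 differed by -0.70 and Zfp219, a partner of SOX9 in mouse cartilage, by -0.32, and neither passed. A further 5 listed genes lay below the level, Zfp423, Zfp521, Zfp536, Zfp365 and Zfp804a. Of these Zfp521 passed as lower, by -0.82 (limma adjusted p = 0.04425, and 0.08555 with the replicate block), and lost the call without any 1 array but non-EGFP replicate 2.

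Of 17 GC-box and chromatin-complex factors 4 were higher and 1 lower, and the median difference was 0.362. Of all 280 Zfp genes 24.6% were higher, so the higher count is near that share. Zfp532, Zfp592 and Zfp687 code for related proteins that bind the chromatin reader ZMYND8 together, and their messengers differed in direction. Zfp532 had 7.05, 6.11 and 6.52 in CCK-EGFP cells, against 3.94, 3.30 and 3.98 in non-EGFP cells, at least 3.90-fold higher (limma adjusted p = 0.002271). Zfp592 was lower, as given above, and Zfp687 had 8.40, 7.97 and 7.95 against 8.33, 7.86 and 8.36, a difference of -0.08 (limma adjusted p = 0.8121). Zfp451, a SUMO ligase, was higher by 1.31 (limma adjusted p = 0.01312) and Zfp827, which recruits the NuRD complex to telomeres in human cells, by 1.01 (limma adjusted p = 0.01529). The other probe set of Zfp827, at a mean level of 7.56, differed by -0.28 and was not past the test. Zfp281, a GC-box factor of pluripotent cells, was higher by 0.88 (limma adjusted p = 0.04521, and 0.06905 with the replicate block). Zfp451 and Zfp827 lost the call without CCK-EGFP replicate 1, Zfp451 also without CCK-EGFP replicate 2, and Zfp281 without any 1 array but non-EGFP replicate 2. Zfp148, a relative of Zfp281, differed by 0.21 and Zfp91 by 0.40, and neither passed.

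Of 7 retroelement and imprint KRAB genes above the level 2 were higher and 0 lower, and the median difference was 0.349. Zfp568, which silences a placental transcript of Igf2 in mouse embryos, had 10.76, 10.68 and 10.30 in CCK-EGFP cells, against 9.24, 8.20 and 7.91 in non-EGFP cells, a difference of 2.13 with an SE of 0.372 (limma adjusted p = 0.01052). Both of its probe sets passed when tested alone. Zfp932, a repressor of endogenous retroviruses, had 8.55, 8.91 and 9.18 against 7.61, 6.31 and 7.55, a difference of 1.73 (limma adjusted p = 0.02486), and lost the call without any 1 of the CCK-EGFP arrays. Zfp445, an imprint regulator, differed by -0.07, Zfp809, which silences murine leukaemia virus, by 0.31, Zfp866 by 0.35 and Zfp961 by 0.85, and none of these 4 passed. Zfp708 had 3.66, 4.49 and 5.48 against 5.74, 5.54 and 6.67, and its limma adjusted p was 0.08848, or 0.03241 with the replicate block. Zfp57, Zfp42 and Zfp819 lay below the level.

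Of 25 measured genes of the KRAB co-repressor pathway, which are not Zfp genes, 8 were higher and 2 lower, with a median difference of 0.514. The shares over all genes above the level, 18.7% and 12.3%, and above a mean of 7.45, 15.4% and 14.7%, are the background for these counts. Trim28, the protein that KRAB domains bind, had 11.76, 12.15 and 11.80 in CCK-EGFP cells, against 10.63, 10.80 and 10.71 in non-EGFP cells, a difference of 1.19 with an SE of 0.191 (limma adjusted p = 0.008134). The deacetylase gene Hdac2 was higher by 1.91 (limma adjusted p = 0.01031) and Tasor, of the HUSH silencing complex, by 1.38 (limma adjusted p = 0.04811). Smarcad1, a remodeller bound by TRIM28, was higher by 1.42 (limma adjusted p = 0.02199, and 0.05754 with the replicate block). Tasor lost the call without any 1 array but non-EGFP replicate 3, and Smarcad1 without replicate 1 or 2 of either group. Chd3, a NuRD remodeller bound by TRIM28, was lower, with 9.70, 9.54 and 9.95 against 11.48, 11.004 and 10.93 (difference -1.41, limma adjusted p = 0.008493). Kdm1a, Ehmt2 and Morc3, with differences of 0.59, 0.18 and 0.20, did not pass.

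**Figure D4:**
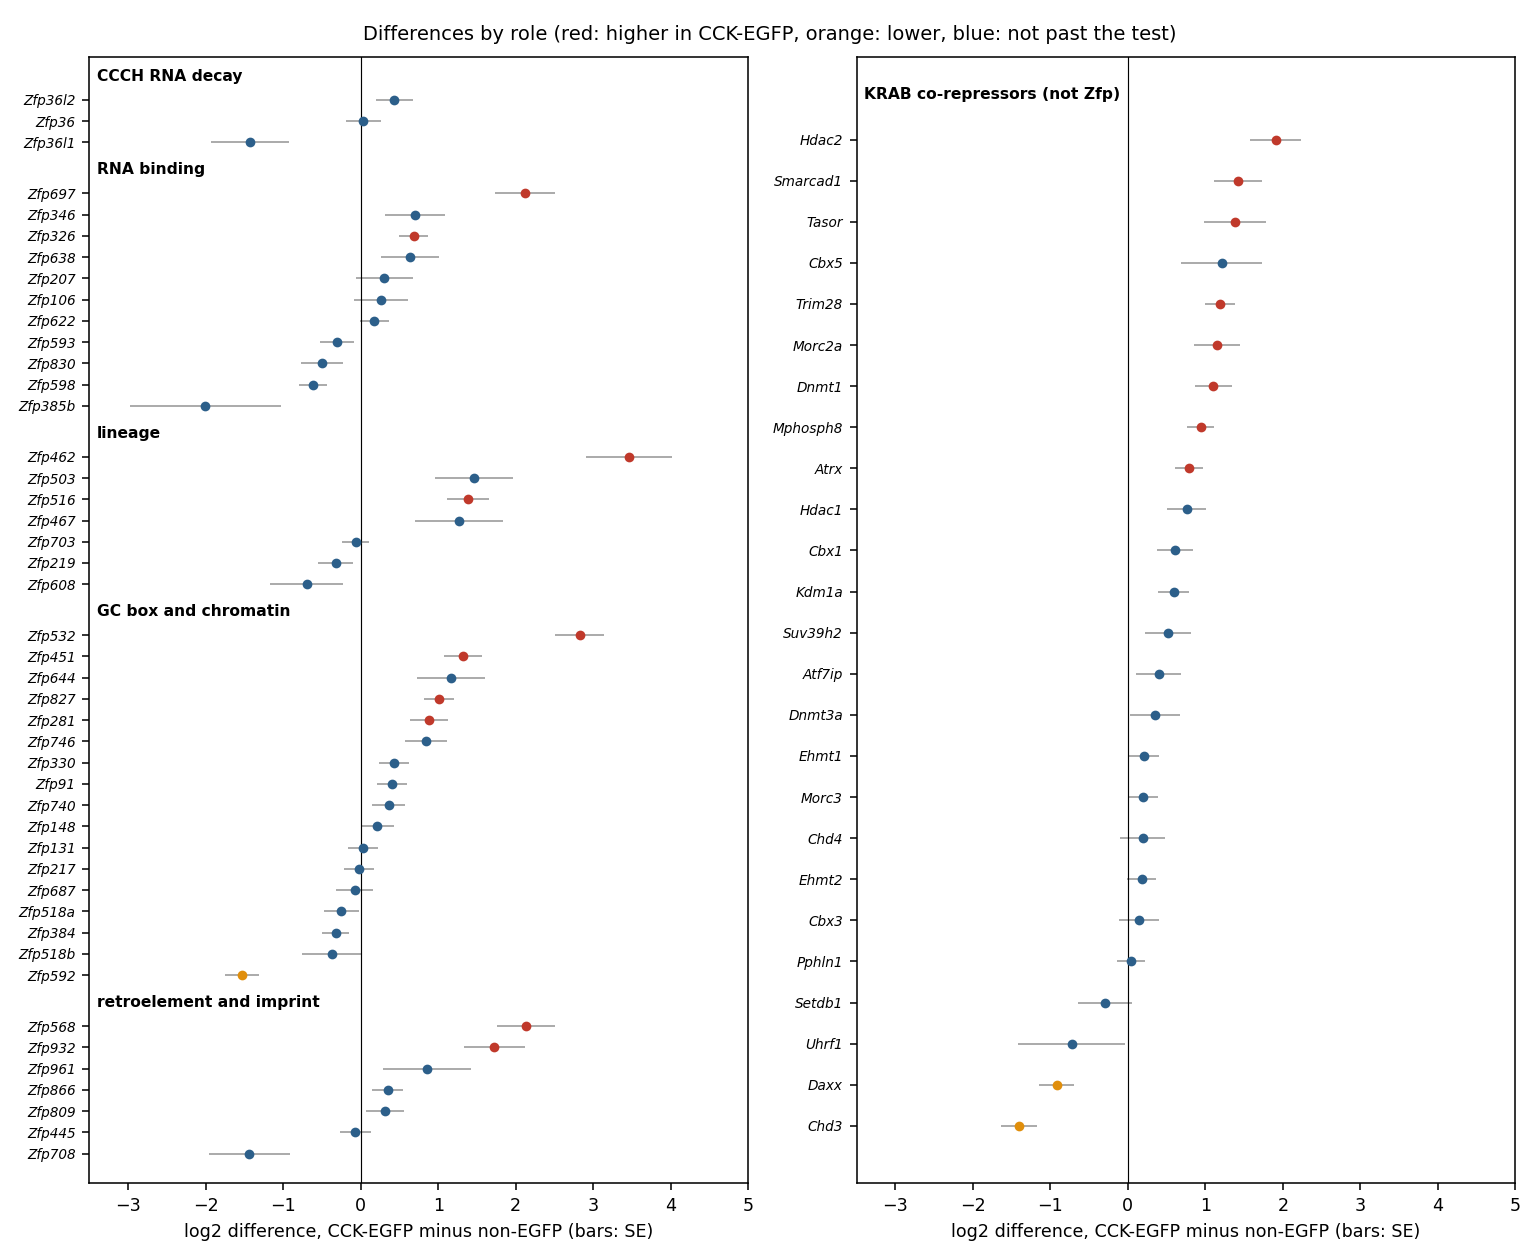
Log2 difference, CCK-EGFP minus non-EGFP (horizontal axis), with its SE, of the Zfp genes of each role (left) and of the KRAB co-repressor genes, which are not Zfp genes (right). Red genes were higher in CCK-EGFP cells, orange genes lower and blue genes did not pass; Zfp532 and Zfp592 of the GC-box and chromatin group lie on opposite sides of 0.

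Genes of the dissociation response, which enzymes and sorting can induce, were measured beside these. Of 18 genes 4 were higher and 0 lower, Nr4a1 by 4.20, Egr2 by 3.33, Ier2 by 1.45 and Egr1 by 0.74. A share of 18.7% of all genes above the level was higher, so the count is near the background. Egr1 had a limma adjusted p of 0.04323, or 0.05987 with the replicate block, and lost the call without any 1 array but non-EGFP replicate 1. Ier2 lost it without CCK-EGFP replicate 1, without CCK-EGFP replicate 2 or without non-EGFP replicate 2. Fos, Jund and Dusp1, with differences of 0.07, -0.01 and 0.56, did not pass. Of 13 cell cycle genes 0 passed in limma's test, and Pcna, Birc5 and Ccna2 differed by 0.03, -0.94 and -0.95. With the replicate block 2 of the 13 were lower, Birc5 (limma adjusted p = 0.04328) and Ccnb2 (difference -1.32, limma adjusted p = 0.04245). The part of dissociation in the differences of the Zfp genes was not tested.

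Many Zfp genes arose by tandem duplication and still lie in clusters. In the RefSeq gene order 277 of the 280 genes could be placed, and 141 had another Zfp gene as a neighbour. Of these 141, 39 were higher and 3 lower, with a median difference of 0.577, and of the 136 others 29 were higher and 5 lower, their median being 0.386. The shares were 24.6% higher and 2.86% lower over all 280 Zfp genes, and 18.7% and 12.3% over all genes above the level. Neighbours are not independent, and paralogs can share probe sequence. There were 37 runs of 2 or more kept genes, and 0 of them held both a higher and a lower gene. With only 3 lower genes among the 141, a run of both kinds could hardly occur, so this 0 does not show that neighbours agree. In the run of Zfp871, Zfp811, Zfp799 and Zfp870 the differences ran from -1.32 to 3.65.

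The longest run held 11 kept genes from Zfp84 to Zfp566, of which 5 were higher. Zfp568, Zfp14, Zfp82 and Zfp566, which follow each other at 1 end, had CCK-EGFP means of 10.58, 7.70, 7.98 and 8.01 and non-EGFP means of 8.45, 4.44, 4.31 and 5.46. The adjusted p of Zfp566 was 0.03922, or 0.05021 with the replicate block, and it lost the call without any 1 of the CCK-EGFP arrays or without non-EGFP replicate 1. Zfp790, near the other end, was higher by 1.00 (limma adjusted p = 0.02996, and 0.05188 with the block), and kept the call without CCK-EGFP replicate 3 alone. Its other probe set, at a mean level of 7.80, differed by -0.39 and was not past the test. Zfp84 and Zfp27 had negative differences of -0.59 and -0.47 that did not pass. The next longest run, of 10 genes from Zfp458 to Zfp729a, had 0 genes past the test, and its differences ran from -1.12 to 0.67.

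**Figure D5:**
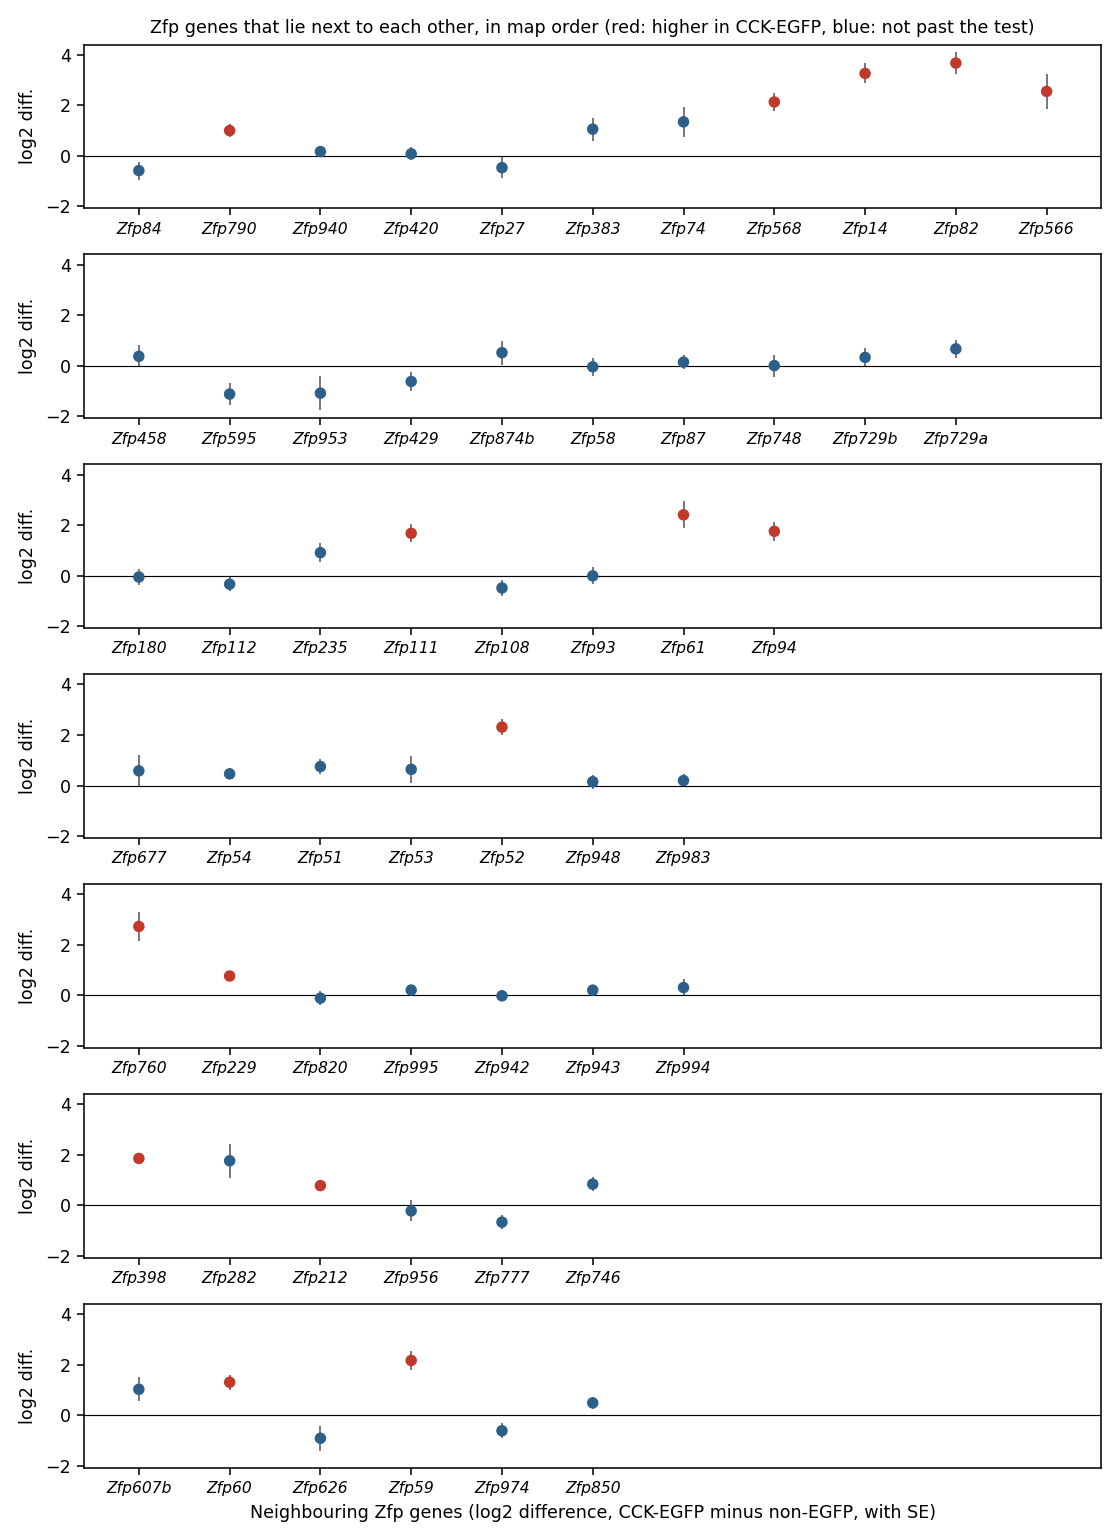
Log2 difference, CCK-EGFP minus non-EGFP (vertical axis, with SE), of Zfp genes in the 7 runs of at least 5 kept genes, in map order along each row; Zfp genes in a run that were not kept are not drawn. Red genes were higher in CCK-EGFP cells and blue genes did not pass; the first run holds 5 red genes and the second 0.

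Probe sets of a gene did not always behave alike. Of the 280 genes 151 had more than 1 probe set, and 43 of these were among the 69 higher genes. In 24 of the 43 all probe sets had positive differences, in 13 another probe set passed in the same direction, and in 19 at least 1 had a negative difference. For 13 of the 43 every other probe set lay below the level. All 3 lower genes with several probe sets, Zfp276, Zfp592 and Zfp277, had negative differences throughout. There were 0 Zfp genes with probe sets past the test in opposite directions. As probe sets with an x or s suffix can bind related genes, the 25 Zfp genes represented by 1 of them are less certain in identity, 3 of the higher genes among them.

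At the threshold on level, the last genes left out were Zfp775, Zfp867 and Zfp128, with means of 4.50, 4.53 and 4.57, and the first kept were Zfp607b, Zfp541 and Zfp385c, with 4.63, 4.64 and 4.64. Zfp607b had 5.21, 5.04 and 5.17 in CCK-EGFP cells, against 3.51, 5.24 and 3.60 in non-EGFP cells, and Zfp128 had 4.76, 5.65 and 4.75 against 4.18, 4.62 and 3.46. The genes just inside and outside thus had arrays on both sides of the level. Of the 56 Zfp genes left out, 45 had both group means below the level, 10 had a CCK-EGFP mean above it and 1 a non-EGFP mean above it.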

How the data were processed

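The authors deposited 1 table of 45101 probe sets on 6 arrays, with values made by RMA per the submitters' processing notes. Its version is not given in the sources used here. These deposited intensities, 1.47 to 14.8, were read as log2, as RMA gives them; RMA normalizes quantiles between arrays, which can reduce a broad shift, and gives no detection call. Of the probe sets 34945 had 1 symbol in the platform annotation, which can be old; 27 with several symbols that name a Zfp gene were left out. The number of arrays limits the precision.

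The test was limma's (version 3.58.1, R 4.3.3; lmFit, then eBayes), two-sided, with Benjamini-Hochberg adjustment over 18193 genes and a threshold of 0.05, and was tested first on simulated data. A group mean below the level was set to the level and the fold given as "at least". Other work used Python 3.11.15 and pandas 2.3.3. The genes and lists were chosen with earlier results of these data known. The text names from the genes past the test with no overlap of the groups the 14 highest and up to 14 lowest differences, the 6 with the highest means, all CCCH and all retroelement and imprint genes, and from each other list up to 5 genes past the test and 3 not past it. Zfp687, Zfp467, Zfp566, Zfp790, Zfp84, Zfp27, Ccnb2 and the genes said to lie below the level were named after their values were seen. The motifs, the choice of promoters, the ranges of level and the runs shown were also chosen after values were seen. A comparison of protein features was planned and not run, since protein sequences were not used here.

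Samples carry the numbers 1 to 3 in each group. Deviations from the group means, across genes, correlated at 0.2704, 0.1593 and 0.2189 for samples of the same number and at -0.2454 to -0.0109 otherwise. Each same-number value was over 0.1, so a fit with the replicate number as a block was given as an alternative. Across the Zfp genes alone the same-number values were lower, at 0.1187, 0.0408 and 0.0932, against -0.0955 to 0.0022 otherwise. The main test has no block, so its counts and p-values take no account of a pairing. Blocked values stand beside the calls of named genes and the counts of lists that they change.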

Additional observations from a re-analysis of the deposited data

How the results depend on the processing

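The alternatives were a replicate block, 2 centrings, another quantile normalization, 2 filters on dim genes, a trended robust variance, array weights, the mean of a gene's probe sets, a test against a log2 difference of 0.5, and leaving out each array. Against 69 higher and 8 lower Zfp genes with a median difference of 0.4608, centring on each array's median gave 18 lower genes and a median of 0.2081, and quantile normalization gave 13 and 0.2946. Centring had first been run on the median of the probe sets with 1 symbol and was changed to the median of all probe sets after results were seen; the first version gave 51 higher and 30 lower genes and a median of 0.0905, with all genes at -0.5403, so the number of lower Zfp genes depends on the centring. Array weights gave 14 lower genes, the mean of probe sets 13, and the test against 0.5 gave 32 higher and 5 lower. Leaving out 1 array gave 25 to 61 higher genes, 5 to 14 lower genes and medians of 0.4082 to 0.497. Of the higher genes 23 of 69, and of the lower genes 5 of 8, kept the call in all 6 such fits, and all kept their sign. The number of Zfp genes kept was 286 with medians over arrays, 297 and 244 with the 90th and 99th percentiles, and 278 when only 70 receptor genes with a digit in the symbol set the level (4.6365), a version run first and replaced after results were seen; it also gave 69 higher and 8 lower. With both group means required above the level, an alternative added after the data were seen, the counts were 51 and 8, and the median difference 0.3588 against 0.0208 for all such genes.

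With the replicate block 60 Zfp genes were higher and 9 lower (median 0.4608); calls of named genes that it changed are given beside them.

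Of the 280 Zfp genes, 193 had a positive difference in the main fit and 163 after centring on array medians. After centring on medians of the probe sets with 1 symbol, 149 did. In every fit that leaves out 1 array, 225 of the 280 kept their sign. The changes of sign listed below are only of genes named above, none of them past the test, and do not cover all Zfp genes. On array medians these were Zfp622 (-0.0757), Zfp36 (-0.2199), Zfp148 (-0.0403), Ehmt2 (-0.0734), Morc3 (-0.0523), Fos (-0.1778) and Pcna (-0.2277). On medians of the probe sets with 1 symbol, the centring run first and replaced after results were seen, they were Zfp622 (-0.1934), Zfp36 (-0.3375), Zfp106 (-0.1101), Zfp148 (-0.1579), Zfp809 (-0.0568), Zfp866 (-0.0209), Ehmt2 (-0.1911), Morc3 (-0.1699), Fos (-0.2955) and Pcna (-0.3454). With the mean of probe sets they were Zfp106 (-0.6526), Zfp36l2 (-0.1407), Zfp91 (-0.0901), Zfp148 (-0.0218) and Ehmt2 (-0.2336). Jund changed to 0.0146 with quantile normalization and 0.0264 with array weights, Pcna to -0.0191 and Zfp687 to 0.0005 with array weights. Without 1 array, Zfp36 ran from -0.0868 to 0.1757, Zfp106 from -0.0983 to 0.5533, Zfp445 from -0.1965 to 0.0066, Zfp687 from -0.2404 to 0.0106, Jund from -0.0577 to 0.0595 and Pcna from -0.1153 to 0.1549. The cause was not tested.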
